A study of Mus musculus with 26 samples.

Results

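The insulin-like growth factor (IGF) genes described here were the 2 ligands Igf1 and Igf2, the receptor gene Igf1r and the 6 binding protein genes Igfbp2, Igfbp3, Igfbp4, Igfbp5, Igfbp6 and Igfbp7. They were chosen by name, as 9 of the 16426 genes in the single-cell tables. In RPE/choroid, the pigment epithelium behind the retina together with its vascular bed, most of these genes were highest in 1 or a few of the cell classes. Igf1 was highest in a stromal cluster, Igfbp3 in endothelial cells (ECs), Igfbp4 and Igfbp5 in stromal clusters, Igfbp6 in a single stromal cluster, Igfbp2 in RPE, apart from a stromal cluster of 1 strain where a single cell held most of its UMIs, and Igfbp7 in almost every vascular and stromal cluster. In the bulk data, group mean Igfbp5 was 1.81-fold lower in RPE/choroid after endothelial deletion of Ihh, and group mean Igfbp4 was 1.82-fold higher in cultured GLI1+ cells after a Hedgehog agonist.

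IGF1 and IGF2 are secreted peptides that signal through IGF1R, a receptor tyrosine kinase that acts on growth, survival and metabolism. IGFBP2 to IGFBP6 bind the IGFs with high affinity outside cells, and can either withhold them from the receptor or carry them to it. IGFBP7 is a related secreted protein of the vessel wall and matrix with low affinity for IGFs. Indian hedgehog (IHH) is a secreted ligand whose receiving cells raise Gli1, a transcription factor gene used as a readout of the pathway.

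The scRNAseq data came from 2 libraries of sorted live nucleated RPE/choroid cells from 90-day-old mice, 1 of strain B6129PF1/J and 1 of C57BL/6J. Each was a pool of an eye from a male and an eye from a female, so the comparison of strains has 1 library a side. In the Ihh experiment, RPE/choroid came from 6-month-old C57BL/6J mice given tamoxifen 12 weeks before tissue was taken, either wild type (Ihh+/+) or with Ihh deleted by an inducible Cre under the endothelial Cdh5 promoter (IhhiΔEC/iΔEC), with 3 samples per genotype. Both genotypes carried the Cre. In the culture experiment, choroidal cells carrying GFP at the Gli1 locus (Gli1GFP/+, strain label SWR/J) were sorted for GFP, expanded in culture and given 100 nM SAG, a Smoothened agonist that switches on the Hedgehog pathway, or its vehicle DMSO for 24 h, with 3 samples per treatment. Because these cells grew from a sort of pooled female mice, the 3 samples measure cultures rather than animals. Another data set held ECs sorted by VE-cadherin from 30-day-old B6129PF1/J mice. Neural retina, lung, liver and heart ECs had 3 samples each. The choroidal ECs set beside them are not among the samples of this series, and the paper says their data were published earlier. Per the paper, eye ECs were pooled from several mice per isolation, and those of lung, liver and heart came from a single mouse.

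The B6129PF1/J library held 3637 cells with 17168578 UMIs (unique molecular identifiers, each standing for 1 captured transcript), and the C57BL/6J library held 3928 cells with 15230413 UMIs. Median depth per cell was 3881 and 3174 UMIs, 22 barcodes occurred in both libraries, and 35 and 33 cells carried UMIs of both Xist and Ddx3y, as doublets of a male and a female cell would. The authors' 13 clusters were used as deposited: 1 was RPE, 2 to 4 ECs, 5 to 8 stromal cells, 9 smooth muscle cells, 10 melanocytes, 11 hematopoietic cells, and 12 and 13 Schwann cells. All 6 endothelial, 6 stromal, 5 melanocyte and 4 hematopoietic marker genes were highest in their own clusters in both libraries. The exceptions were Best1, an RPE channel gene that was highest in cluster 5, S100b, which was highest in melanocytes, and, in B6129PF1/J, the muscle filament gene Des, which was highest in cluster 6.

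Levels are given as UMIs per 10,000 UMIs of a cluster, a scale that counts transcript ends and is not divided by gene length. The range in parentheses is the exact 95% Poisson interval, which covers counting error only and says nothing of the spread between animals. Since each strain had 1 library, no difference between clusters or strains could be tested. A level of 0 still allows 3 counts, which is 0.00945 to 0.338 per 10,000 across the 13 clusters of the B6129PF1/J library.

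The 3 binding protein genes on which most comparisons turn were Igfbp3, Igfbp4 and Igfbp5, and how alike their promoters are was not measured. Shown are the 250 bases before the RefSeq transcription start of each on GRCm38.p6, written 5′ to 3′ on the gene's own strand. The exact TATA box letters TATAAA are in capitals, and other forms of the TATA box were not searched. The Igfbp3 sequence lies at chr11:7213924-7214173 on the minus strand, the Igfbp4 sequence at chr11:99040994-99041243 on the plus strand and the Igfbp5 sequence at chr1:72874866-72875115 on the minus strand.
Igfbp3: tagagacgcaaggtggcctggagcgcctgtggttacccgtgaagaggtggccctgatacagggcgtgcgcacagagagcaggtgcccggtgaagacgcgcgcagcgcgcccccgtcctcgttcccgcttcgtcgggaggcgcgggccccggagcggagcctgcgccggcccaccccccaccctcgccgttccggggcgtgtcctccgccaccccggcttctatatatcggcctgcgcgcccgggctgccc
Igfbp4: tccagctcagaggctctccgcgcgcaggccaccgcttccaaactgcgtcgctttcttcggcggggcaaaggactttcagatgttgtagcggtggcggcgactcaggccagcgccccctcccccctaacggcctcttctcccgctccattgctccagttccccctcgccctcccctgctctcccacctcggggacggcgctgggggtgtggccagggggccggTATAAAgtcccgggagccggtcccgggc
Igfbp5: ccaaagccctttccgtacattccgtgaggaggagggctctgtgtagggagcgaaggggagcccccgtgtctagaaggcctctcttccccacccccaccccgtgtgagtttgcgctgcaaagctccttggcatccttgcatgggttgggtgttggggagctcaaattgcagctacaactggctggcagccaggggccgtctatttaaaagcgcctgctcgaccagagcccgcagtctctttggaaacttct
GC content was 73.2% for Igfbp3, 69.2% for Igfbp4 and 58.8% for Igfbp5. Igfbp4 had TATAAA on its own strand, starting 28 bases before the start, and 12.4% of 32851 mouse promoters of this length have TATAAA on either strand. The core sequence bound by GLI factors, GACCACCCA, was searched on both strands and is in 0.225% of the promoters. It was in none of the members' promoters, which says only that these letters are not in the 250 bases. The GC box GGGCGG (32.7% of promoters) and the E-box CACGTG (6.02%) had no match in these 3 genes. Igfbp2 had both.

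Igf1, on chromosome 10 (GRCm38 87858265 to 87937042), was a stromal transcript. In cluster 6 it was at 3.92 (3.65–4.20) UMIs per 10,000 in B6129PF1/J and 4.503 (4.21–4.82) in C57BL/6J, the highest level in both libraries. An Igf1 UMI was seen in 66.2% of cluster 6 cells in each library, against 1.97% and 1.34% of RPE cells, although RPE cells were deeper (medians of 5263 and 3406 UMIs against 3595 and 2870). After each cell was thinned to 1700 UMIs, the shares in cluster 6 were 47.0% and 50.9%. The stromal clusters together held 92.0% and 84.6% of all Igf1 UMIs, with 39.0% and 37.7% of all UMIs. Within the stroma the other clusters ran lower: cluster 8 was at 3.16 and 1.78, cluster 5 at 1.76 and 1.51, and cluster 7 at 1.26 and 0.936.

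Outside the stroma, ECs held 55 and 80 Igf1 UMIs, smooth muscle 34 and 38, and hematopoietic cells 40 and 127, the last from 3.19% and 3.98% of all UMIs. In hematopoietic cells the libraries stood apart. Cluster 11 was at 0.731 (0.522–0.995) in B6129PF1/J and at 2.09 (1.75–2.49) in C57BL/6J, below all 4 stromal clusters in the first library, whereas in the other its interval overlapped that of cluster 8 (1.42–2.20) and lay above those of clusters 5 and 7. Cells of the cluster with UMIs of at least 2 macrophage markers and of no mast or T/NK pair numbered 48 and 72, and they held 38 of 40 and 122 of 127 of its Igf1 UMIs. In these macrophage-called cells Igf1 was at 1.49 (1.05–2.04) and 3.59 (2.98–4.29), a ratio of 2.41 (1.67–3.57). In cluster 11 as a whole, 23.7% of the 5362 genes with 20 UMIs or more were past 1.5-fold higher in C57BL/6J and 7.68% were lower, so many other genes differed in the same direction there. T/NK-called cells, 15 in B6129PF1/J and 2 in C57BL/6J, had no Igf1 UMI. The rest of the cluster was at 0.0797 and 0.197. The macrophage-called cells thus held most of the Igf1 of the cluster in both strains, with an Igf1 UMI in 27.1% of them in B6129PF1/J and in 52.8% in C57BL/6J.

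Igf2, the second ligand, an imprinted gene on chromosome 7 (142650766 to 142666816), was close to the limit of detection. The libraries held 236 and 141 Igf2 UMIs in all. Stromal clusters gave 61.9% and 66.7% of them and RPE 27.5% and 14.9%. The highest level was 0.367 (0.190–0.641) in EC cluster 4 of B6129PF1/J, from 12 UMIs, and 0.272 (0.145–0.466) in cluster 8 of C57BL/6J, from 13. These intervals overlapped those of the next clusters, so the order among clusters 4, 5, 7 and 8 could not be read at this depth. EC cluster 2 was far below EC cluster 4, at 0.00525 and 0.0219 (1 and 4 UMIs). Hematopoietic cells had no Igf2 UMI in either library, which allows up to 0.0548 and 0.0495 per 10,000.

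Igf1r, the receptor gene on chromosome 7 (67952827 to 68233668), was low and broad. Its levels were 0.750 (0.655–0.855) and 0.927 (0.790–1.08) in RPE, 0.911 (0.840–0.986) and 0.692 (0.626–0.764) over the stromal clusters, and 0.761 and 0.742 in smooth muscle. ECs were lower, at 0.411 (0.355–0.474) and 0.392 (0.338–0.451). Within them, cluster 2 was lowest, at 0.262 and 0.241. Hematopoietic cells had the least of the well-covered clusters, at 0.164 and 0.181. The highest cluster was 7 in B6129PF1/J (1.04) and RPE in C57BL/6J, with intervals that overlapped those of other clusters.

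**Figure D1:**
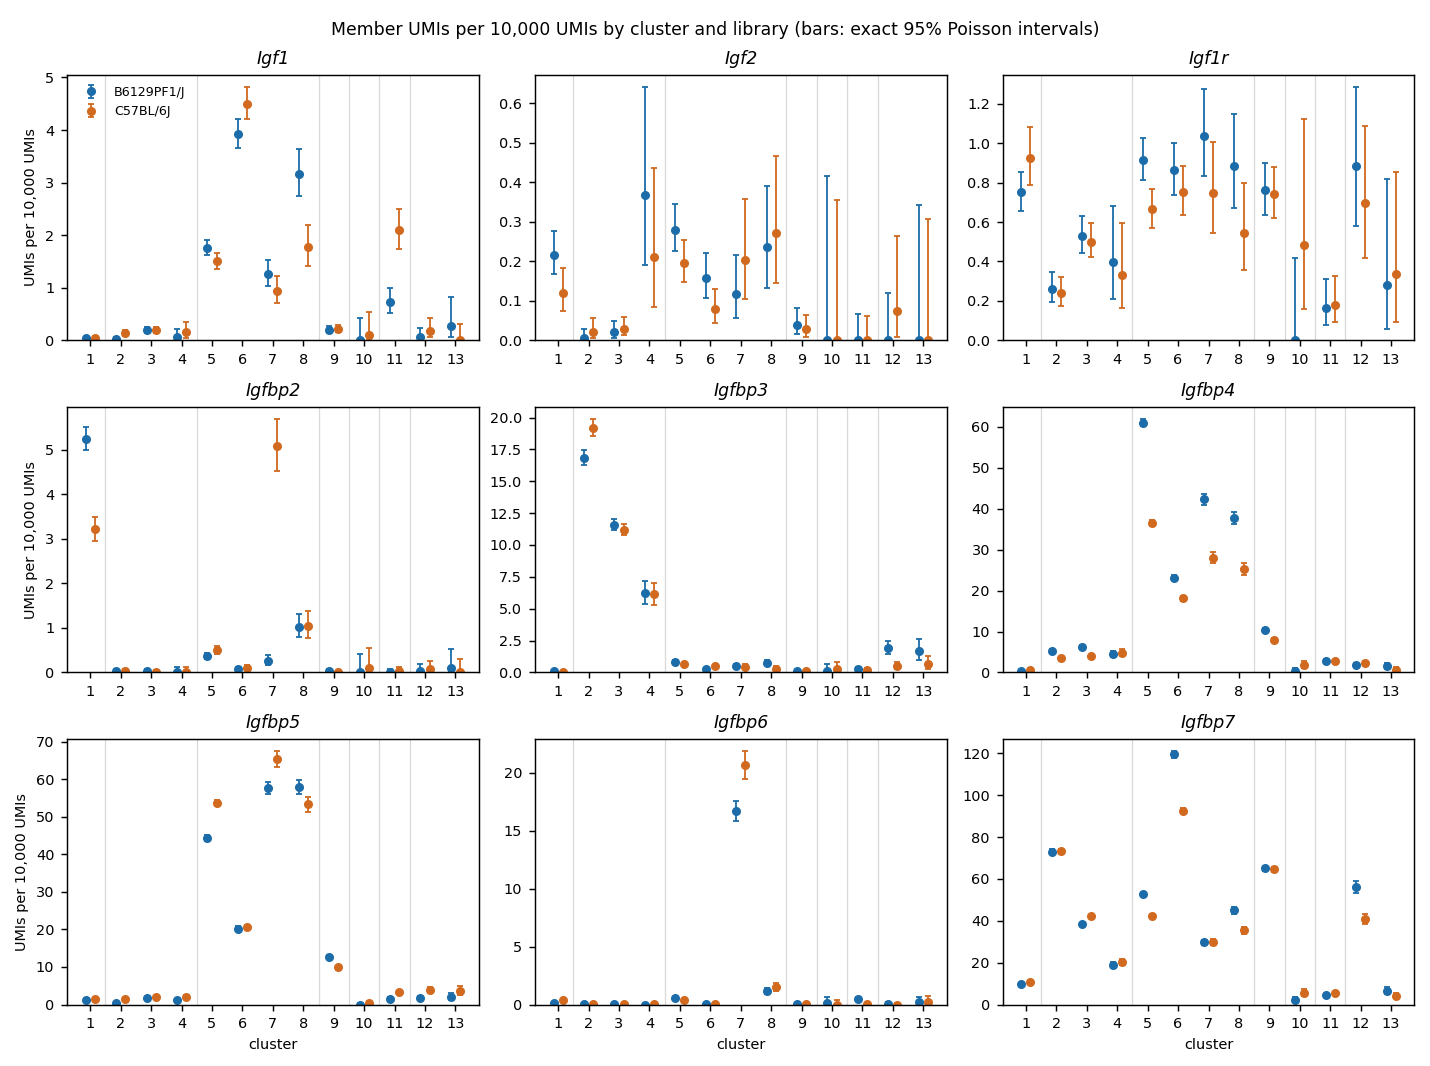
UMIs per 10,000 UMIs (y axis, a separate scale for each gene) of the 9 genes in the 13 clusters (x axis) of the B6129PF1/J (blue) and C57BL/6J (orange) libraries, with exact 95% Poisson intervals as bars; grey lines divide the cell classes. Igfbp3 stands out in clusters 2 to 4 and Igfbp6 in cluster 7 in both libraries, while the Igfbp2 points of cluster 7 lie at 0.259 and 5.07.

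Igfbp2, whose product is a binding protein of tissue fluids and serum, was mainly an RPE transcript in B6129PF1/J. RPE was at 5.24 (4.98–5.50) there and at 3.22 (2.96–3.50) in C57BL/6J, and a UMI was seen in 308 of 407 and 205 of 374 RPE cells (75.7% and 54.8%; 52.1% and 33.7% after thinning to 1700 UMIs). In EC cluster 2 the shares were 0.811% and 1.24%, at median depths of 4232 and 3460 UMIs. The next cluster with clear signal was stromal cluster 8, at 1.03 (0.794–1.31) and 1.05 (0.777–1.38). RPE was therefore at or above 3 per 10,000 in both strains, but lower in the C57BL/6J library by a ratio of 0.615 (0.557–0.677).

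In stromal cluster 7 the strains gave opposite pictures of Igfbp2, at 0.259 (0.162–0.392) in B6129PF1/J and 5.07 (4.51–5.68) in C57BL/6J. The second value came from few cells: 21 of 158 cells had an Igfbp2 UMI, 1 cell held 197 of the 298 UMIs, and the 10 cells with most held 96.3%. Without that 1 cell the cluster was at 1.74, below the 3.16 of RPE without its own highest cell. That cell had 7939 UMIs, 2.35 times the median of its cluster, so it was among the doublet candidates, and without all such candidates the cluster was at 1.89. It also held 127 Igfbp6 UMIs. In the other 20 cells with Igfbp2, Igfbp6 was at 21.2 per 10,000 against 18.4 in the 137 cells without, a ratio of 1.15 (0.972–1.36), so a difference was not detectable at this depth. Igfbp4 was lower in the 20 cells, at 20.1 against 29.4 (ratio 0.682, 0.574–0.806). Of 5 smooth muscle markers, Acta2 (3.75 against 1.27, ratio 2.94, 1.83–4.63) and Tagln (1.42 against 0.219, ratio 6.50, 2.55–16.5) were higher. How many of the 20 cells held these UMIs was not checked. Des, a further smooth muscle marker, went the other way over all 21 cells with Igfbp2 (0.235 against 0.418, ratio 0.561, 0.0638–2.295), with an interval that held 1. Myh11 and Cnn1 were not compared. Smooth muscle itself had Igfbp2 at 0.0394 and 0.0112 per 10,000, from 7 and 2 UMIs. Over all 21 cells, the RPE marker Ttr was lower, at 3.75 against 7.88 (ratio 0.476, 0.321–0.683). Rpe65 was at 0.235 against 0.358 (ratio 0.655, 0.0737–2.73). Among stromal markers, Dcn was higher (ratio 1.24, 1.18–1.30) and Lum lower (0.744, 0.621–0.886). The intervals of Pdgfra, Pdgfrb, Col1a1 and Col1a2 held 1. The part of RNA from other cell classes in the result was not tested.

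Igfbp3, which encodes the main IGF carrier of serum, marked ECs. It lies on chromosome 11 (7206086 to 7213923, minus strand). Its level was 16.8 (16.3–17.4) and 19.2 (18.6–19.9) in cluster 2, 11.6 (11.1–12.0) and 11.2 (10.8–11.6) in cluster 3, and 6.23 (5.41–7.15) and 6.13 (5.32–7.04) in cluster 4. The order 2, 3, 4 was the same in both libraries, with no overlap of intervals. ECs held 92.0% and 94.7% of all Igfbp3 UMIs. In cluster 2, 88.4% and 89.1% of cells had a UMI, against 3.93% and 2.41% in RPE. The stromal clusters together were at 0.622 and 0.542. In Schwann cluster 12 it was at 1.90 in B6129PF1/J and 0.477 in C57BL/6J, but 44 of the 58 UMIs of the first were in 1 cell.

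Igfbp4, on chromosome 11 (99041244 to 99054392), encodes a binding protein known mainly as an inhibitor of IGF action until it is cleaved by the protease PAPP-A. It was led by stromal cluster 5, at 61.0 (60.1–61.9) in B6129PF1/J and 36.5 (35.8–37.2) in C57BL/6J. Clusters 7 and 8 followed at 42.3 and 28.0 and at 37.7 and 25.3, then cluster 6 at 23.2 and 18.1. Smooth muscle was at 10.47 and 7.93. ECs were lower, between 4.49 and 6.26 in the 3 clusters of B6129PF1/J and between 3.57 and 4.80 in those of C57BL/6J. RPE was at 0.424 and 0.635. The stroma held 86.1% and 81.8% of its UMIs.

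Igfbp5, on chromosome 1 (72857932 to 72874884, minus strand), encodes a binding protein that also attaches to the extracellular matrix. Its gene lies tail to tail with Igfbp2, with 5457 bases between them, yet RPE, rich in Igfbp2, had Igfbp5 at only 1.14 and 1.51. Igfbp5 was highest in clusters 8 and 7 of B6129PF1/J, at 57.8 (56.0–59.7) and 57.6 (55.9–59.2), which overlapped, and in cluster 7 of C57BL/6J, at 65.3 (63.2–67.4). Cluster 5 was at 44.4 and 53.6, cluster 6 at 20.2 and 20.6, and smooth muscle at 12.7 and 9.89. ECs were at 1.22 and 1.72. The stroma held 89.0% and 88.7% of the UMIs.

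Within ECs, Igfbp5 was concentrated in few cells. Of 863 and 1024 ECs, 30 (3.48%) and 49 (4.79%) held 5 or more UMIs, and these had 70.8% and 80.0% of all endothelial Igfbp5 UMIs. The summed level of the 6 stromal markers was 16.7 (15.1–18.3) and 23.3 (21.8–24.9) per 10,000 in these cells, against 0.579 (0.502–0.663) and 0.474 (0.407–0.550) in the 718 and 847 ECs with no Igfbp5 UMI. Their 6 endothelial markers summed to 71.3 and 75.8 against 105.6 and 104.0, and their median depth was 8262 and 6467 UMIs against 3997 and 3299. The 5 smooth muscle markers summed to 1.92 and 5.42 against 0.307 and 0.366. Cells with more UMIs have more chance of 5 Igfbp5 UMIs, so the gap in depth is partly set by how the cells were picked. Whether the picked cells were doublets was not tested.

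Igfbp6 encodes the binding protein that prefers IGF2. It lies on chromosome 15 (102144362 to 102149511) and had the widest gap of the 9 genes between its highest cluster and the next. Cluster 7 was at 16.7 (15.8–17.6) and 20.7 (19.5–21.9), with a UMI in 91.4% and 88.6% of cells. The next cluster, 8, was at 1.16 and 1.51, which is 14.5- and 13.7-fold lower. In EC cluster 2 the share of cells with a UMI was 2.16% and 0.993%. The share of cluster 7 after thinning was 71.9% and 77.2%.

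Igfbp7, on chromosome 5 (77349240 to 77408041, minus strand), had the highest levels of the family and the widest reach. It led in stromal cluster 6, at 119.5 (118.0–121.0) and 92.7 (91.3–94.1). EC cluster 2 followed at 73.1 (71.8–74.3) and 73.1 (71.9–74.4), and smooth muscle at 65.2 and 64.6. Schwann cluster 12 was at 56.1, next in order, in B6129PF1/J and at 40.7, below clusters 5 and 3, in C57BL/6J. Clusters 5, 8, 3, 7 and 4 lay between 18.97 and 52.6 in B6129PF1/J and between 20.2 and 42.4 in C57BL/6J. RPE was at 9.71 and 10.8, and clusters 10, 11 and 13 were at 6.51 or less. Along the EC clusters, Igfbp7 fell in the order 2, 3, 4 as Igfbp3 did, and the 3 levels did not overlap in either library. The other Schwann cluster, 13, was at 6.51 and 4.01, far below cluster 12, so that Igfbp7 set the Schwann clusters apart.

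When the 6 binding protein genes were added up, the stromal clusters had the most. Cluster 6 was at 163.3 and 132.0 UMIs per 10,000, cluster 5 at 159.7 and 134.0, cluster 7 at 147.1 and 149.3 and cluster 8 at 143.6 and 116.9. EC cluster 2 was at 95.8 and 97.4, smooth muscle at 88.6 and 82.6, RPE at 16.7 and 16.6, and melanocytes at 3.04 and 8.09. In cluster 6, Igfbp7 made up 73.2% and 70.2% of the sum, and in EC cluster 2 it made up 76.3% and 75.1%, with Igfbp3 at 17.6% and 19.7%. In cluster 5, Igfbp4 made up 38.2% of the sum in B6129PF1/J and 27.3% in C57BL/6J, and Igfbp5 27.8% and 40.0%. Igfbp7 lay between them in both libraries, at 32.9% and 31.6%. RPE had Igfbp2 at 31.4% and 19.4% and Igfbp7 at 58.1% and 65.1%.

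**Figure D2:**
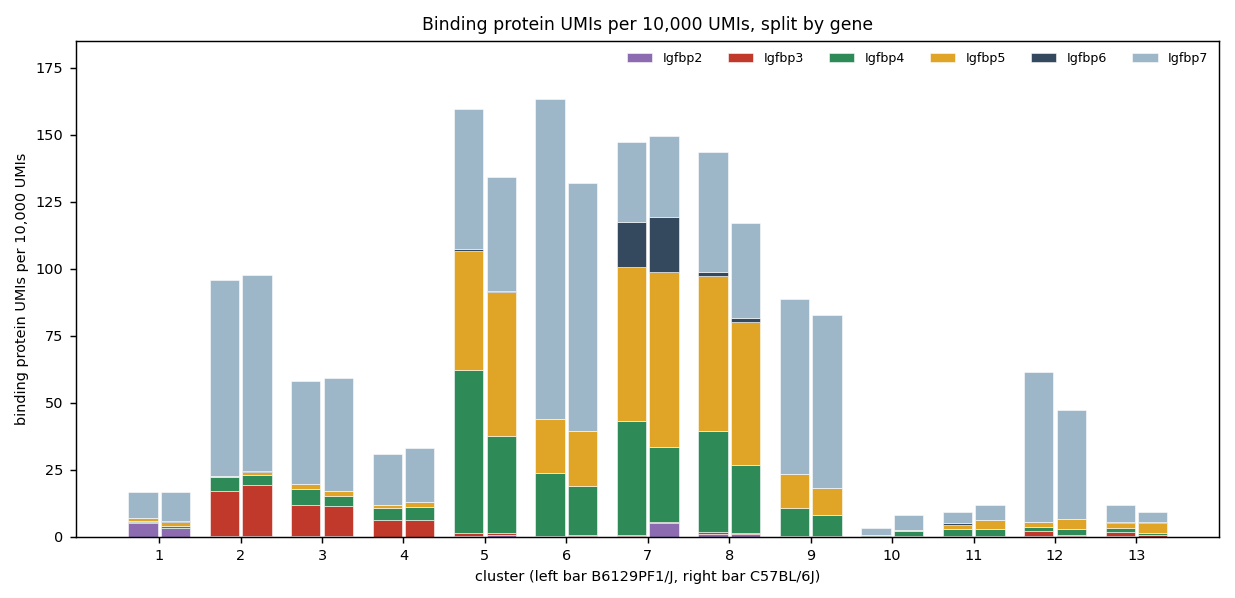
Summed UMIs per 10,000 UMIs of the 6 binding protein genes (y axis) in each cluster (x axis; left bar B6129PF1/J, right bar C57BL/6J), split by gene in color. Clusters 5 to 8 reach 116.9 to 163.3, and cluster 2 is made mainly of Igfbp7 and Igfbp3 with little Igfbp5.

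Single cells of the stroma carried several binding protein transcripts at once. With each cell thinned to 1700 UMIs, 3 or more of the 6 genes were detected in 95.1% and 92.1% of cells of cluster 5, in 94.1% and 96.2% of cluster 7 and in 96.9% and 91.9% of cluster 8. The shares were 73.9% and 73.3% in cluster 6, 60.1% and 45.6% in smooth muscle, 44.3% and 33.5% in EC cluster 2, 8.60% and 7.75% in RPE and 5.56% and 7.41% in Schwann cluster 12. None of the 6 was detected in 56.6% and 55.1% of hematopoietic cells and in 93.8% and 80.8% of melanocytes, of which there were only 16 and 26. In hematopoietic cells, which had little of these genes, 3 or more were detected in 3.77% and 4.72%. How far free RNA, doublets or the cells' own transcripts gave these detections was not tested.

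For each member, the 3 genes with the most similar level over the 26 values of 13 clusters in 2 libraries were found by Pearson's r on log2(level + 0.1), among 7563 genes with 200 UMIs or more in each library. The points of a library share its cells' depth and preparation, so r is a description. Igfbp3 was closest to the EC genes Clec14a (0.96), Eng (0.95) and Cx3cl1 (0.95). Igfbp2 was close to Cpxm2 (0.87) and to the collagen gene Col8a2 (0.87). Igfbp7 was closest to Cald1 (0.93), a caldesmon gene of contractile cells, 1110059E24Rik (0.90) and Zfp503 (0.88). Igfbp5 was closest to Pgf (0.97) and Edn3 (0.94), and Igfbp4 to Cped1 (0.95), Ecm1 (0.92) and Ccdc80 (0.91). Igfbp6 was closest to Tspan11 (0.92), Itgbl1 (0.91) and Scara5 (0.89). Igf1 was closest to Fam26f (0.92), Isg20 (0.91) and Ccl7 (0.89), and Igf1r to Tspan6 (0.90), Gtf2h5 (0.83) and Tceal1 (0.82). Igf2, itself under the minimum of 200 UMIs in 1 library, was closest to Sulf1 (0.83), Kazald1 (0.81) and Fbn1 (0.79). Among the members, Igfbp4 and Igfbp5 were the closest pair (0.86).

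The libraries of the 2 strains were next compared cluster by cluster. Of 86 pairs of member and cluster with 20 UMIs or more, 14 were over 1.5-fold higher in C57BL/6J and 15 over 1.5-fold lower. Over 88444 such pairs of all genes, 10.0% were higher and 8.85% lower, and nothing particular to the members is read from their counts. The interval of the ratio held 1 in 4 of the 29 pairs. Where the cell with the most UMIs of each member was left out of each cluster and library, 10 of 77 pairs were higher and 11 lower, with 18 of the 29 calls kept, 11 lost and 3 gained. A difference in 1 library per strain may belong to strain, to the pooled mice or to the preparation, and these cannot be told apart.

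Where they passed 1.5-fold between the libraries, Igfbp4 was mostly lower in C57BL/6J and Igfbp5 only higher, and cluster 13 passed for both. Igfbp4 was lower in C57BL/6J in 9 of 13 clusters, past 1.5-fold in 4 of them. It was past 1.5-fold higher in 1 (cluster 10, 3.85, from 4 and 18 UMIs), where 1 cell held 13 of the 18 and 14.5% of genes were higher. Its ratio was 0.599 (0.585–0.613) in cluster 5, 0.633 (0.585–0.685) in EC cluster 3 and 0.662 (0.624–0.702) in cluster 7, with 7.17%, 7.72% and 10.6% of all genes lower past this fold in these clusters. The fourth was cluster 13, at 0.448 (0.166–1.11), where 1 cell held 15 of the 16 UMIs of B6129PF1/J. Igfbp4 was at 0.670 in cluster 8, 0.675 in cluster 2, 0.782 in cluster 6 and 0.757 in smooth muscle. Without the highest cells, clusters 8 (0.652) and 2 (0.660) also passed the fold for Igfbp4, and clusters 10 and 13 had under 20 UMIs. Igfbp5 was past 1.5-fold higher in C57BL/6J in 5 of 12 clusters and lower in none. These 5 were clusters 2, 4, 11, 12 and 13, where its level was low: 0.530 against 1.44 in cluster 2, 1.52 against 3.25 in cluster 11 and 1.67 against 3.78 in cluster 12. Of all genes, 8.89% were higher past this fold in cluster 2, 11.8% in cluster 4, 23.7% in cluster 11, 11.4% in cluster 12 and 13.5% in cluster 13. In the stromal clusters, where it was high, Igfbp5 ratios ran from 0.921 in cluster 8 to 1.21 in cluster 5. Without the highest cell, cluster 13 no longer passed the fold for Igfbp5 (1.29).

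Of the other members, Igf1 was lower in cluster 8 (ratio 0.563, 0.431–0.729, where 11.8% of genes were lower). It was higher in cluster 11 (2.87, 1.99–4.20, where 23.7% of genes were higher). In cluster 2 it was also higher (4.17, 1.66–12.5, from 6 and 24 UMIs, where 8.89% of genes were higher). Igf1r passed the fold in 1 of 11 clusters, cluster 8, at 0.615 (0.370–0.995), where 11.8% of genes were lower. Igfbp6 in RPE was 3.48-fold (2.26–5.46) higher in C57BL/6J, at 0.110 and 0.383, where 8.83% of genes were higher. It was lower in 2 of its 7 clusters. Igf2 was higher in 1 and lower in 2 of 5 clusters, and Igfbp3 higher in 2 and lower in 3 of 12. Over all pairs the shares were 10.0% higher and 8.85% lower. Without the highest cells, the calls of Igf2 in cluster 7, Igfbp3 in clusters 9, 12 and 13, and Igfbp6 in clusters 6 and 11 were lost. Igfbp7 passed the fold in the small clusters 10 (2.36) and 13 (0.615). Without the highest cells it had under 20 UMIs in cluster 10 and a ratio of 0.860 in cluster 13, and cluster 11 passed the fold, at 1.64. Its ratio in cluster 6, where it was highest, was 0.776.

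**Figure D3:**
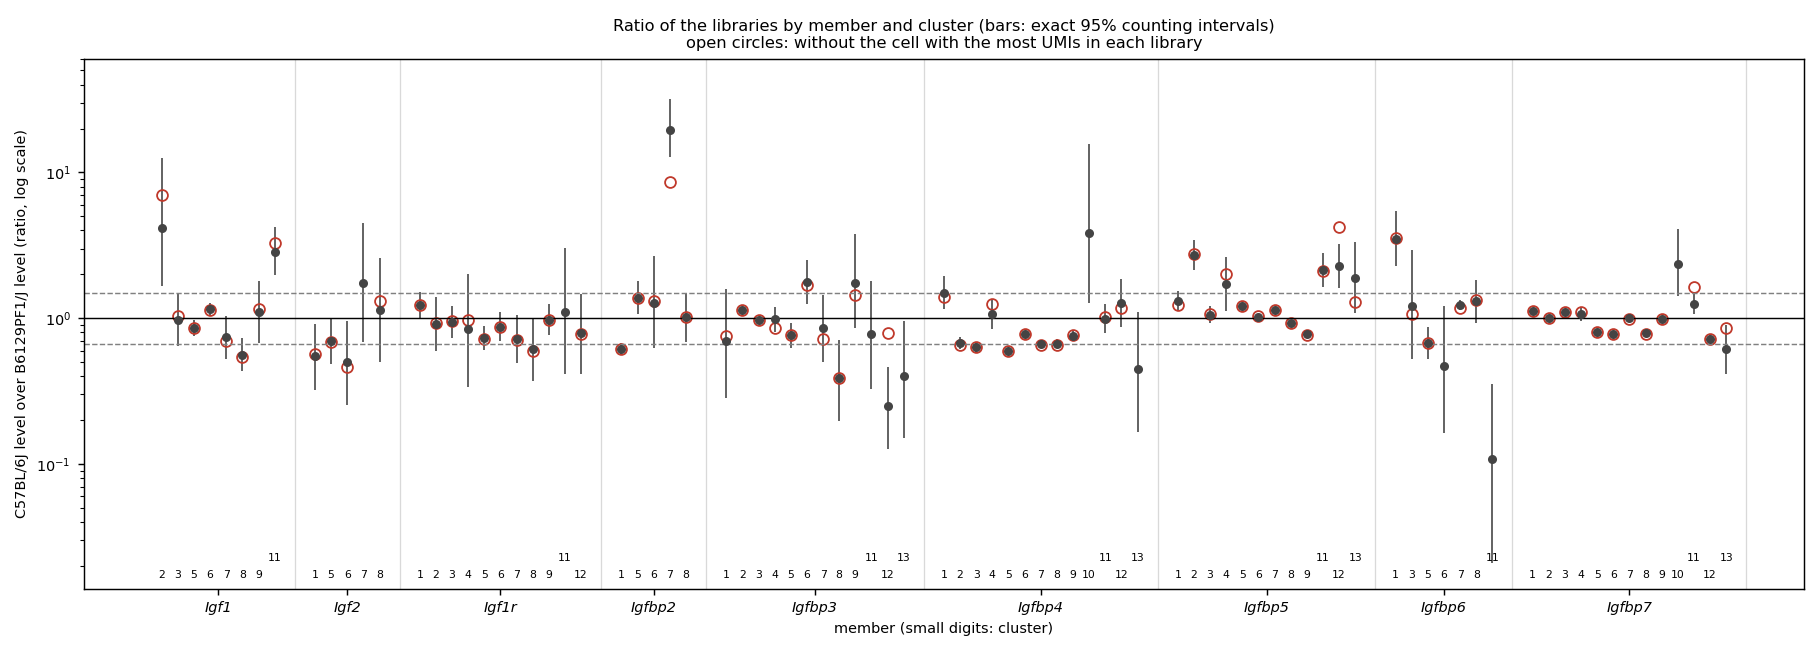
Ratio of the C57BL/6J to the B6129PF1/J level (y axis, log scale) for each member and cluster with 20 UMIs or more (x axis; small digits give the cluster), with exact 95% counting intervals as bars, dashed lines at a 1.5-fold difference and open circles for the ratio without the cell with the most UMIs in each library. The Igfbp2 point of cluster 7 lies at 19.6 and its open circle at 8.64, while the Igfbp4 points of clusters 2, 3 and 5 to 9 lie between 0.599 and 0.782.

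Other genes of the pathway came from a list of 42, of which 38 were in the single-cell tables and 12 reached 1 UMI per 10,000 in some cluster of both libraries. Insr, the insulin receptor, was an EC gene, at 1.71 and 2.86 in cluster 2 and 1.77 and 2.27 in cluster 3, the reverse of Igf1r. Stc1, which encodes an inhibitor of the PAPP-A protease, was also endothelial, at 1.88 and 3.48 in cluster 2. Among proteases that can cleave binding proteins, Htra1 was highest in Schwann cluster 12 of B6129PF1/J (3.11, against 1.43 in C57BL/6J) and in EC cluster 4 of C57BL/6J (2.27, against 1.497), Adamts1 reached 5.26 and 4.75 in EC cluster 4, and the lysosomal protease gene Ctsd was at 34.2 and 29.7 in RPE. Of signalling genes, Grb14, an adapter that restrains insulin receptor kinases, was at 2.51 and 1.84 in Schwann cluster 13. In Schwann cluster 12 it was at 2.06 and 1.58, with overlapping intervals. Socs2, a suppressor of growth hormone signalling, was at 2.06 and 1.87 in cluster 5. Foxo1 was at 1.87 and 1.47 in cluster 3 and at 1.86 and 1.58 in Schwann cluster 12. Pik3r1 was at 1.88 and 2.14 in cluster 6, and Grb2 at 1.12 and 1.17 in hematopoietic cells.

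In the table of sorted ECs, 2 of the 9 members were among the 99 genes listed, all of which the study had picked as higher in choroidal than in the other ECs. The choroidal values below are therefore a description of that choice. Igfbp3 was at an authors' mean of 684.1 FPKM (a scale of fragments divided by gene length and library size) in choroidal ECs, 106.2 in heart, 43.8 in lung, 33.1 in neural retina and 2.42 in liver ECs. Igfbp5 was at 160.2 in choroidal, 11.9 in heart, 11.1 in lung, 2.75 in neural retina and 1.19 in liver ECs. Among the non-choroidal ECs, both were highest in heart and lowest in liver. In scRNAseq, EC levels per 10,000 UMIs were 13.4 and 13.9 for Igfbp3 and 1.22 and 1.72 for Igfbp5. The same table listed Rpe65 at 21.8, the melanosome gene Pmel at 18.8 and Gli1 at 3.58 FPKM in the choroidal samples. These are genes of RPE, pigment cells and stroma, and their part in the Igfbp5 value was not tested.

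**Figure D4:**
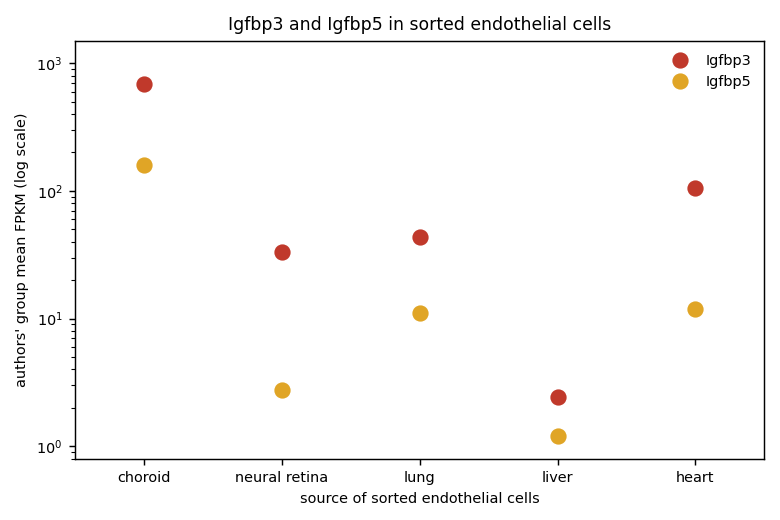
Authors' group mean FPKM (y axis, log scale) of Igfbp3 (red) and Igfbp5 (yellow) in ECs sorted from 5 tissues (x axis). Igfbp3 runs from 2.42 in liver to 684.1 in choroid and Igfbp5 from 1.19 to 160.2.

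The question of the Ihh experiment was how gene expression in the whole RPE/choroid depends on IHH from its ECs. The deposited values are group means, so there is no spread between animals to set a difference against, and a change is called here past 1.5-fold. Ihh itself was at 1.53 FPKM in Ihh+/+ and 0.454 in IhhiΔEC/iΔEC tissue, Gli1 at 9.40 and 3.15, and the IHH receptor gene Ptch1 at 7.69 and 4.98. Among 8 members with a row, 1 was lower and 0 were higher past this fold; of 11411 genes at 1 FPKM or more, 2.53% were lower and 2.17% higher. Igfbp6 was not analysed here. The bulk kit does not mark strand, so reads of Igfbp7 and of Polr2b and Gm34648, which overlap it on the other strand, cannot be told apart, nor those of Igf1 and Igf2 from their antisense genes Igf1os and Igf2os.

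Igfbp5 was the member past the fold, at 508.9 FPKM in Ihh+/+ and 280.6 in IhhiΔEC/iΔEC, a ratio of 0.552. It ranked 125th from the lowest ratio among the 11411 genes, and 28th by level. Igfbp7 was at 371.1 and 274.4 (ratio 0.740) and Igfbp4 at 409.7 and 372.1 (0.908). Igf1 was at 4.42 and 3.73, Igf2 at 21.4 and 26.3, Igf1r at 4.91 and 5.39, Igfbp2 at 57.04 and 59.7, and Igfbp3 at 31.6 and 28.9. The 5 binding protein genes with a row summed to 1378 and 1016 FPKM, with Igfbp5 at 36.9% and 27.6% of the sum and Igfbp4 at 29.7% and 36.6%, so that Igfbp4 took the first place. Of the pathway list, 30 genes were at 1 FPKM or more, of which 2 were higher and 0 lower: Stc1 (1.11 and 3.15) and Adamts1 (8.64 and 13.6).

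Markers of several cell classes were lower beside Igfbp5. Of 6 stromal markers 4 were lower past the fold. The 6 summed to 731.7 and 468.8 FPKM, with ratios from 0.524 to 0.832. Of 5 melanocyte markers 3 were lower (sum 2118 and 1319), of 4 mast cell markers at 1 FPKM or more 3 were lower, and all 6 photoreceptor markers were lower (sum 77.8 and 27.5). None of the RPE (sum 6066 and 7247) or EC markers (207.1 and 174.0) passed the fold. In bulk tissue, fewer cells of a type and less RNA per cell cannot be told apart, and the part of these classes in the Igfbp5 value was not tested. In the single-cell data Igfbp5 and Igfbp4 were both mainly stromal but led in different stromal clusters. Their ratios after Ihh deletion were 0.552 and 0.908, and the source of this difference was not tested. Melanocytes had 0 and 4 Igfbp5 UMIs, and photoreceptors formed no cluster.

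The culture experiment asked how GLI1+ cells respond to the Hedgehog agonist. Gli1 was at 0.028 FPKM with DMSO and 3.65 with SAG, Ptch1 at 1.12 and 10.1, and Hhip, a Hedgehog antagonist gene, at 0.368 and 1.28. Among 8 members with a row, 1 was higher and 0 were lower past 1.5-fold; of 10325 genes at 1 FPKM or more, 1.38% were higher and 2.45% lower. That member was Igfbp4, at 405.3 FPKM with DMSO and 736.8 with SAG, a ratio of 1.82, the 54th highest of 10325. Igfbp5 was at 229.7 and 291.7 (ratio 1.27) and Igfbp7 at 278.1 and 348.4 (1.253). Igfbp2 was at 859.0 and 719.8, Igfbp3 at 14.7 and 12.1, Igf1 at 6.00 and 6.45, Igf2 at 4.32 and 2.99 (0.692), and Igf1r at 12.98 and 10.8.

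In the cultured cells Igfbp2 had the highest level of the binding proteins. It made up 48.1% of the summed FPKM of the 5 genes with DMSO and 34.1% with SAG, whereas in tissue it was 4.14% in Ihh+/+ samples. Igfbp4 was 22.7% of the sum with DMSO and 34.9% with SAG, just above Igfbp2. All 6 stromal markers were at 1 FPKM or more and none passed the fold (sum 4184 and 3763), while EC, hematopoietic and photoreceptor markers were all under 1 FPKM. Of 34 pathway genes at 1 FPKM or more, 1 was higher, the PI3-kinase gene Pik3cb (1.36 and 2.12), and 2 were lower. These were Pappa2 (1.35 and 0.827), a protease of binding proteins, and H19 (60.9 and 33.2), the imprinted noncoding neighbour of Igf2. With the genes scaled by the median ratio, Igf2 also passed the fold, as lower.

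**Figure D5:**
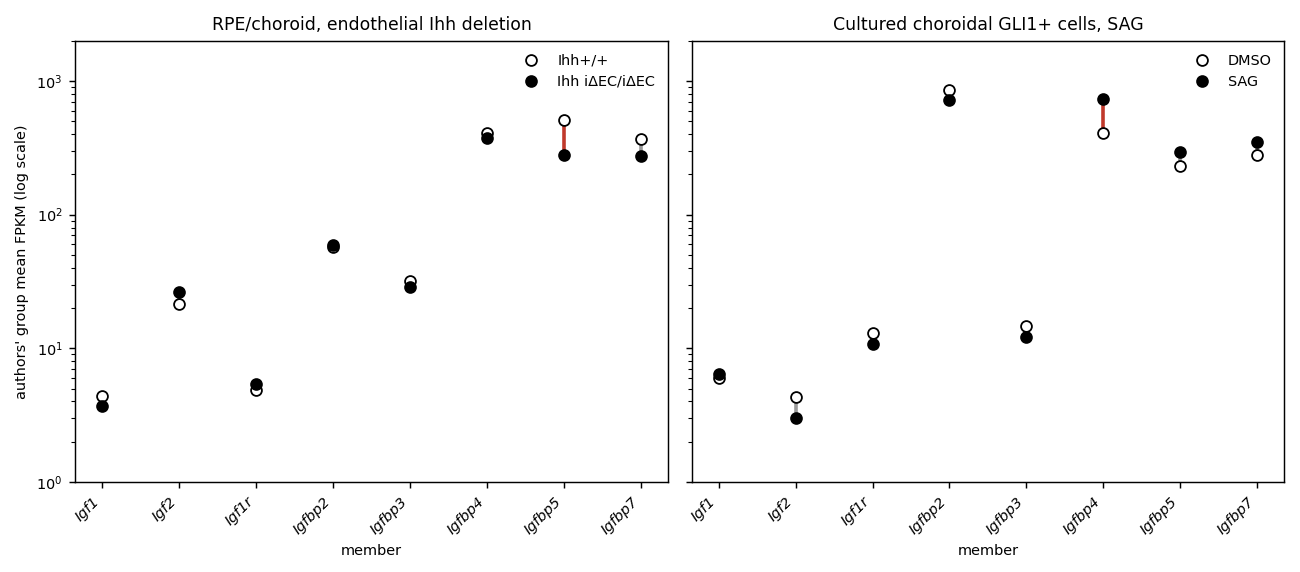
Authors' group mean FPKM (y axis, log scale) of the 8 members with a row (x axis) in Ihh+/+ (open) and IhhiΔEC/iΔEC (filled) RPE/choroid on the left and in DMSO (open) and SAG (filled) GLI1+ cells on the right; a red line joins means that differ by over 1.5-fold. Igfbp5 lies at 508.9 and 280.6 on the left and Igfbp4 at 405.3 and 736.8 on the right.

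The experiments differed in which member stood out. Igfbp5 had a ratio of 0.552 after loss of endothelial Ihh and 1.27 with SAG, and Igfbp4 had 0.908 and 1.82. The tissue measured all cell classes 12 weeks after tamoxifen and the cultures only sorted cells after 24 h, so the values are given side by side.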

How the data were processed

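Single RPE/choroid cells were profiled on the 10x Chromium platform and bulk RNA by TruSeq libraries without strand marking. Per the submitters' processing notes, reads were placed on mm10 with STAR 2.4.0f1, with SAMtools 0.1.19, HTSeq, Cufflinks 2.0.2 and DESeq2 for bulk data and Cell Ranger and Seurat 2.1 for single cells; which step used DESeq2 or HTSeq is not given in the labels. The single-cell tables hold UMI counts as deposited by the authors, together with their cluster of each cell, whose kept cells had at least 604 genes. The authors' bulk tables hold FPKM averaged over the 3 samples of a group, with fold changes and adjusted p-values of their own comparisons, which were not used. No per-sample bulk value was used, so no test, SD or replicate check was made. Choroidal ECs enter as the authors' mean. Deposited tables of cluster averages were not used.

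The 9 members, the marker lists and the list of 42 pathway genes were chosen with earlier results of these data known. UMIs were summed per cluster and library and divided by all UMIs of the cluster, times 10000. Intervals were exact 95% (Poisson for levels, Clopper-Pearson for shares and ratios), and 3 counts were taken as the limit for a count of 0. Ratios between libraries used pairs with at least 20 UMIs, bulk ratios used genes with a group mean of at least 1 FPKM, and 1.5-fold was the threshold. Doublets were kept. An alternative left out cells with both Xist and Ddx3y or with over 2 times their cluster's median depth, keeping 3334 and 3540 cells. Named were all members, pathway genes past 1.5-fold in bulk or with 1 UMI per 10000 in a cluster of both libraries, the 3 most similar genes per member, and check genes where a result is read beside them. Some genes that this rule names are not reported here. Cells of cluster 11 were called by at least 2 markers of 1 list and not of another; mast-called cells numbered 0 and 2, with no Igf1 UMI. Gene positions are from GENCODE vM21 and promoters from RefSeq, both on GRCm38. Python 3.11.15, numpy 2.4.6, pandas 2.3.3, scipy 1.17.1 and matplotlib 3.10.9 were used, and the calculations were tested on simulated data.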

Additional observations from a re-analysis of the deposited data

Results flagged for a closer look

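In 6 cases the order of a pair of clusters was opposite in the libraries of the 2 strains, with counting intervals apart in both. The difference was not tested, since each strain had 1 library. Igf1 in cluster 5 was 0.719 times its level in cluster 11 in C57BL/6J and 2.40 times in B6129PF1/J, and in cluster 7 it was 0.447 and 1.72 times the level in cluster 11. These orders were the same without the cell with the most UMIs (0.758 and 2.92, and 0.402 and 1.88). Igfbp7 in cluster 8 was 0.843 times its level in cluster 3 in C57BL/6J and 1.18 times in B6129PF1/J (0.828 and 1.17 without that cell).

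Igfbp2 in RPE was 0.635 times its level in cluster 7 in C57BL/6J and 20.2 times in B6129PF1/J. Without the highest cell the ratio was 1.81 in C57BL/6J, above 1 as in the other library (25.6). Igfbp2 in cluster 8 was 0.206 and 3.97 times its level in cluster 7, and 0.557 and 4.74 without that cell. Igfbp6 in cluster 11 was 0.129 times its level in RPE in C57BL/6J and 4.15 times in B6129PF1/J, where 1 cell held 23 of the 25 UMIs. Without the highest cells the ratios were 0.0933 and 0.369, on the same side.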

How the results depend on the processing

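No paired analysis was possible because the bulk tables hold group averages only and each strain had 1 single-cell library. For the same reason no replicate was left out. Each result is limited to 1 pool of mice per strain, or to means without spread.

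Of the 9 members, 5 had the same highest cluster in both libraries (Igf1, Igfbp3, Igfbp4, Igfbp6 and Igfbp7). With the mean over cells the count was 7, with Igfbp2 and Igfbp5 added, and with cells thinned to 1700 UMIs or without doublet candidates it was 6. Among pairs of member and cluster, 14 were higher and 15 lower in C57BL/6J. A fold of 2 gave 9 and 6, a minimum of 100 UMIs 8 and 6, cells thinned to 1700 UMIs 9 and 14, and ratios divided by the median ratio 14 and 19. Leaving out the cell with the most UMIs, an alternative chosen after seeing the data, gave 6 members with the same highest cluster, and 10 pairs higher and 11 lower. For that alternative the share over all genes was not computed. For Ihh deletion, the count of 1 of 8 members became 0 at a fold of 2 (1.10% of all genes higher, 0.745% lower). It became 2 (Igfbp5 and Igfbp7, both lower) at the lower fold limit tried, with 5.19% of all genes higher and 8.52% lower. For SAG, 1 of 8 became 0 at a fold of 2 (0.387% of all genes higher, 1.18% lower). At that lower limit it became 4 (Igfbp4, Igfbp5 and Igfbp7 higher, Igf2 lower), with 6.33% of all genes higher and 5.45% lower. With ratios scaled by their median it became 2, with 1.17% of all genes higher and 2.915% lower. Fewer calls at a stricter fold or minimum follow from the setting; for the scaling the cause was not tested. Pseudocounts of 0.1 and 1 and minima of 0 and 5 FPKM left the bulk counts at 1. Under these settings 1.33% to 9.73% of genes were lower with Ihh deletion, and 0.697% to 9.11% were higher with SAG. Igf2, at 236 and 141 UMIs, is limited by depth. Of the 18 highest levels of the members in the libraries, 11 stayed within their counting interval with the mean over cells. The number was 10 with thinned cells and 12 without doublet candidates. With mitochondrial and ribosomal genes left out of the total it was 4, and the levels were 1.08 to 1.24 times those given.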
